A study of Homo sapiens with 9 samples.

Results

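The insulin-like growth factor (IGF) system was examined here through 10 genes: the binding proteins IGFBP1 to IGFBP7, the receptors IGF1R and IGF2R, and the receptor adaptor IRS2. They were selected on their gene names, as 10 of the 38021 genes in the count table, with earlier results of these same libraries in view, so the set was in part chosen by the values described below. The adjusted p-values come from fits of all genes and describe these libraries. They are not independent support for the choice of genes.

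The libraries came from 786-O cells, an established line of clear cell renal cell carcinoma (ccRCC) that lacks the VHL tumour suppressor and accumulates HIF2α. All 3 groups carried a lentiviral pLKO.1 construct and were kept under puromycin, with a non-targeting hairpin (shControl), a hairpin against ARNT (shARNT) or a hairpin against BMAL1 (shBMAL1). Each group had 3 libraries, which the labels call biological replicates without saying whether each came from its own infection. The p-values therefore set group differences against the spread between these samples only. In these libraries each gene was targeted with 1 hairpin in 1 line, and no untransduced cells were included. The paper also reports the depletions in another line and names another BMAL1 hairpin, neither of which is part of these libraries. Only messenger RNA was measured in them, although most of the genes examined encode secreted proteins. ARNT is the usual partner of HIF2α, and the comparison asks which transcripts depend on ARNT and which on the related clock protein BMAL1.

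The binding proteins hold IGF1 and IGF2 outside the cell, prolong their life and limit their access to the receptors. IGF1R is the tyrosine kinase that transmits the signal through adaptors such as IRS1 and IRS2 to PI3K and AKT, whereas IGF2R, also called the cation-independent mannose 6-phosphate receptor, carries IGF2 and lysosomal enzymes to lysosomes and does not signal as a kinase. Proteases cut the binding proteins and release the growth factors. IGFBP1 and IGFBP3 are known as hypoxia-responsive genes, and IGFBP3 is prominent in ccRCC.

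Promoter windows were available for 8 of the 10 genes, from RefSeq on build GRCh38.p14, and 3 are printed to show the gene with opposite changes in the knockdowns (IGFBP3), the receptor whose window holds repeated E-boxes (IGF2R) and the gene that fell most in shARNT (IRS2). Each line gives the 250 bases before the annotated start, 5′ to 3′ on the gene's strand. Capitals mark ACGTG or GCGTG, the core bound by HIF dimers, or CACGTG, the E-box bound by BMAL1 and CLOCK, read on either strand, so that a match on the opposite strand appears as CACGT or CACGC. The windows lie at chr7:45921273-45921522 on the minus strand (IGFBP3), chr6:159968832-159969081 on the plus strand (IGF2R) and chr13:109786584-109786833 on the minus strand (IRS2).
IGFBP3: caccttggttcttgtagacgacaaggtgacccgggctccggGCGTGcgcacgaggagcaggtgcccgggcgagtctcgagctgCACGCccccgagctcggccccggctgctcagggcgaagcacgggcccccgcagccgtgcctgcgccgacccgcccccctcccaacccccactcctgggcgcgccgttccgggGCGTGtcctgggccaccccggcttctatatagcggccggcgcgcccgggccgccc
IGF2R: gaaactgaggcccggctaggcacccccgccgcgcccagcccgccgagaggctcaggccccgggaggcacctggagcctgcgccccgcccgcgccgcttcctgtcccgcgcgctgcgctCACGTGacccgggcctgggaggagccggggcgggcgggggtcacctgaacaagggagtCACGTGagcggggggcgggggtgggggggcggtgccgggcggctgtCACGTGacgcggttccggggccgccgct
IRS2: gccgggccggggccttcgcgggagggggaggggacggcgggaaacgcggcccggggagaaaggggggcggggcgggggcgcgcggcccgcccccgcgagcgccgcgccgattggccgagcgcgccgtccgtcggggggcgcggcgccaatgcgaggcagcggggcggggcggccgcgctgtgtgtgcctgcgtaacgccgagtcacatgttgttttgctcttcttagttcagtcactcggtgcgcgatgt

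The IGFBP3 window held 3 positions of the GCGTG core, at -209, -167 and -55 from the start, the middle one on the opposite strand. The IGF2R window held CACGTG at 3 positions, -132, -74 and -28, and each of these palindromes also contains the ACGTG core on both strands. Among 35116 RefSeq windows of 300 bases, 48.4% held at least 1 HIF core and 10.1% held it at 3 or more positions. CACGTG was present in 7.26% of the windows and at 3 or more positions in 0.0940% (33 windows). The IGF1R window held the HIF core at 5 positions and no E-box, and neither set of letters was found in the windows of IRS2, IGFBP2, IGFBP4, IGFBP5 and IGFBP6. These matches describe letters only, because no binding was measured in these libraries.

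The library totals ran from 33793067 to 35444757 estimated counts and 20074 to 20780 genes had counts in a library. The normalised count of ARNT was 2187-2551 across the shControl libraries, 1199-1239 across shARNT and 1928-2072 across shBMAL1. BMAL1, listed under its older symbol ARNTL, ranged over 735-797, 568-676 and 292-346 in the same order, so each targeted transcript was lowest in the group labelled for it and the ranges did not overlap. ARNT fell by 0.94 ± 0.07 (log2, SE) in shARNT (DESeq2 adjusted p = 8.62e-35) and ARNTL by 1.23 ± 0.11 in shBMAL1 (adjusted p = 2.5e-25). Each transcript was also called lower, by less, in the other knockdown, whereas the paper's immunoblots showed slightly more of each protein there. ARNT had a log2 fold change of -0.23 ± 0.08 in shBMAL1 (DESeq2 adjusted p = 0.0187), a call lost without shControl replicate 2 (0.162) or shBMAL1 replicate 2 (0.109). ARNTL had -0.26 ± 0.10 in shARNT (DESeq2 adjusted p = 0.0293), lost without shControl replicate 2 (0.150) or shARNT replicate 3 (0.214). The share of reads from mitochondrial genes was 6.21% ± 0.854 for shControl, 8.06% ± 0.604 for shARNT and 9.33% ± 0.538 for shBMAL1 (SD, n = 3), and its part in the results below was not tested. All 10 renal carcinoma markers had counts in every group, the lowest group mean being 17.7 (CA9 in shARNT), whereas the 5 immune markers summed to 7.04-14.7 and the 5 endothelial markers to 7.79-21.99 normalised counts in a library.

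IGFBP3, the most abundant carrier of IGFs in blood, was lower in cells expressing shARNT and higher in cells expressing shBMAL1 (GRCh37 chr7:45951844-45961473, minus strand). Its normalised read counts were 14187, 13497 and 12428 in the shControl libraries, 11679, 10146 and 9893 in shARNT, and 23466, 23286 and 22432 in shBMAL1. No library of any group fell within the range of another group. In bulk RNA a change in the level per cell and a change in the share of cells expressing the gene cannot be told apart. DESeq2 gave a log2 fold change of -0.34 ± 0.07 (SE) in shARNT (1.26-fold lower, adjusted p = 7.16e-06) and 0.78 ± 0.07 in shBMAL1 (1.72-fold higher, adjusted p = 2.48e-31). Compared directly, shBMAL1 stood 2.18-fold above shARNT (log2 1.12 ± 0.07, adjusted p = 3.3e-54).

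IGFBP7 encodes a secreted relative that binds IGFs weakly and is deposited in vessel walls and matrix. It was higher in both knockdowns, by the most in shBMAL1 (chr4:57896939-57976551, minus strand). The shControl libraries held 9831, 9305 and 9730 normalised counts, the shARNT libraries 12994, 12940 and 11835, and the shBMAL1 libraries 16284, 17877 and 15368. The 3 groups were fully separated in the order shControl, shARNT, shBMAL1. The increase was 1.31-fold in shARNT (log2 0.39 ± 0.05, DESeq2 adjusted p = 6.25e-12) and 1.71-fold in shBMAL1 (log2 0.78 ± 0.07, adjusted p = 8.42e-28), and the step from shARNT to shBMAL1 was 1.31-fold (log2 0.39 ± 0.07, adjusted p = 5.87e-07).

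IGFBP7 was the one gene of the 10 whose deposited values were fractional, in all 9 libraries. Its exons share 94 bases with the antisense transcript IGFBP7-AS1 and 260 bases with POLR2B, a subunit of RNA polymerase II, both on the opposite strand. The kit was stranded, but whether the counting used strand is not given in the sources used here, so shared reads cannot be told apart. IGFBP7-AS1 was also higher in shARNT (log2 0.36 ± 0.10) and in shBMAL1 (log2 0.83 ± 0.10), with DESeq2 adjusted p-values of 0.00103 and 1.2e-16. POLR2B had a different pattern, with a log2 change of 0.27 ± 0.05 in shARNT (adjusted p = 4.39e-07) and -0.094 ± 0.060 in shBMAL1 (adjusted p = 0.256).

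IGFBP6, which prefers IGF2 over IGF1, was lower in both knockdowns (chr12:53491220-53496129, plus strand). Normalised counts were 1223, 1112 and 1293 in shControl, 918, 792 and 974 in shARNT, and 695, 768 and 756 in shBMAL1. The groups were separated in the reverse order of IGFBP7, although the lowest shARNT library stood only just above the highest shBMAL1 library. The fall was 1.35-fold in shARNT (log2 -0.43 ± 0.09, DESeq2 adjusted p = 4.06e-05) and 1.64-fold in shBMAL1 (log2 -0.71 ± 0.10, adjusted p = 1.74e-12). The direct difference between the knockdowns was -0.28 ± 0.10 (DESeq2 adjusted p = 0.029). That call was lost without shARNT replicate 1 (-0.26, DESeq2 adjusted p = 0.121), shARNT replicate 3 (-0.21, 0.197) or shBMAL1 replicate 1 (-0.23, 0.118).

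IGFBP1, the insulin-regulated binding protein of the liver, was a low-abundance transcript in these cells and was higher in shARNT (chr7:45927959-45933259, plus strand). It had 131, 160 and 152 normalised counts in shControl, 229, 210 and 218 in shARNT, and 197, 211 and 157 in shBMAL1. Every shARNT library lay above every shControl library, whereas shBMAL1 replicate 3 lay among the shControl values. The increase in shARNT was 1.49-fold (log2 0.57 ± 0.17, DESeq2 adjusted p = 0.00319), and the log2 difference in shBMAL1 was 0.35 ± 0.19 (adjusted p = 0.152). The shBMAL1 difference passed the threshold of 0.1 without shBMAL1 replicate 3 (log2 0.46, adjusted p = 0.0834), in edgeR (0.35, 0.0679), with low-count genes removed (0.35, 0.097) and in the fit of all 9 libraries (0.35, 0.0936). The knockdowns did not differ past the threshold from each other (log2 -0.22 ± 0.17, adjusted p = 0.346).

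IGFBP1 and IGFBP3 are neighbours on chromosome 7, with 18584 bases between their 3′ ends and transcription running towards each other. Cells expressing shARNT had more IGFBP1 and less IGFBP3, so the per-kilobase ratio of IGFBP3 to IGFBP1 was 32.9 ± 5.26 (SD, n = 3) for shControl, 17.3 ± 0.999 for shARNT and 44.7 ± 6.06 for shBMAL1. The ratios of the shARNT libraries (16.3-18.3) lay below all others, and those of shControl (29.5-39.0) and shBMAL1 (39.7-51.5) did not overlap. The size of the ratio depends on the length used, since with the longest transcript in place of merged exons, an alternative chosen after seeing the data, it was 55.7 ± 8.91, 29.4 ± 1.69 and 75.7 ± 10.3 (SD, n = 3) in the same order. The length cancels between groups, so their order and separation were the same.

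IGFBP4, an inhibitor of IGF action that is cut by PAPPA, was also scarce (chr17:38599702-38613977, plus strand). Its normalised counts were 218, 176 and 246 in shControl, 300, 294 and 276 in shARNT, and 241, 259 and 239 in shBMAL1. The shARNT libraries lay above all others, and the shBMAL1 libraries overlapped the widely spread shControl libraries. The 1.36-fold increase in shARNT (log2 0.45 ± 0.15, DESeq2 adjusted p = 0.0158) was lost without shControl replicate 2 (log2 0.33, adjusted p = 0.148). The log2 differences were 0.21 ± 0.16 in shBMAL1 against shControl (DESeq2 adjusted p = 0.378) and -0.24 ± 0.14 in shBMAL1 against shARNT (adjusted p = 0.205).

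IGFBP2 and IGFBP5, which lie beside each other on chromosome 2 with 7668 bases between them, were at or near 0 (chr2:217497551-217529159, plus strand, and chr2:217536828-217560272, minus strand). IGFBP2 had counts of 0, 6 and 0 in shControl, 0, 4 and 1 in shARNT, and 1, 1 and 0 in shBMAL1. IGFBP5 had 4, 3 and 0 in shControl, 4, 1 and 0 in shARNT, and 0, 1 and 3 in shBMAL1. At this depth no difference between groups was detectable for either gene, and no fold change is given.

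IGF2R was the receptor with the most reads and was lower in both knockdowns (chr6:160390114-160534539, plus strand). The shControl libraries had 17805, 19055 and 17305 normalised counts, the shARNT libraries 15431, 15079 and 14447, and the shBMAL1 libraries 16723, 15263 and 15818. Both knockdowns lay below shControl in every library and overlapped each other. The fall was 1.20-fold in shARNT (log2 -0.27 ± 0.05, DESeq2 adjusted p = 3.86e-06) and 1.13-fold in shBMAL1 (log2 -0.18 ± 0.06, adjusted p = 0.0185). The shBMAL1 call was lost without shControl replicate 2 (log2 -0.14, adjusted p = 0.141) or shBMAL1 replicate 2 (-0.15, adjusted p = 0.113). The direct difference between the knockdowns was 0.087 ± 0.061 (log2, DESeq2 adjusted p = 0.308), and 571 exon bases are shared with the pseudogene CHP1P2 on the same strand, which had no row of its own.

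IGF1R, the signalling receptor, did not pass the threshold in any comparison (chr15:99191768-99507759, plus strand). Normalised counts were 680, 675 and 584 in shControl, 753, 631 and 619 in shARNT, and 744, 679 and 785 in shBMAL1. The 3 groups overlapped. The log2 differences were 0.050 ± 0.11 in shARNT (DESeq2 adjusted p = 0.791), 0.19 ± 0.11 in shBMAL1 (adjusted p = 0.191) and 0.14 ± 0.11 between the knockdowns (adjusted p = 0.372). The sign in shARNT turned without shControl replicate 3 (-0.019) or shARNT replicate 1 (-0.047), and after correction for GC content the shBMAL1 difference passed (log2 0.22, adjusted p = 0.0965).

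IRS2, the adaptor that couples the insulin and IGF receptors to PI3K, had the largest fall of the 10 genes in shARNT (chr13:110405042-110438930, minus strand). The counts were 6600, 6311 and 7683 in shControl, 4315, 3923 and 3601 in shARNT, and 5674, 5846 and 5523 in shBMAL1, after normalisation. The groups did not overlap, with shBMAL1 between the others. IRS2 fell 1.74-fold in shARNT (log2 -0.80 ± 0.08, DESeq2 adjusted p = 8.35e-23) and 1.21-fold in shBMAL1 (log2 -0.27 ± 0.08, adjusted p = 0.00216). From shARNT to shBMAL1 the difference was 1.44-fold (log2 0.52 ± 0.08, DESeq2 adjusted p = 6.71e-11).

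**Figure D1:**
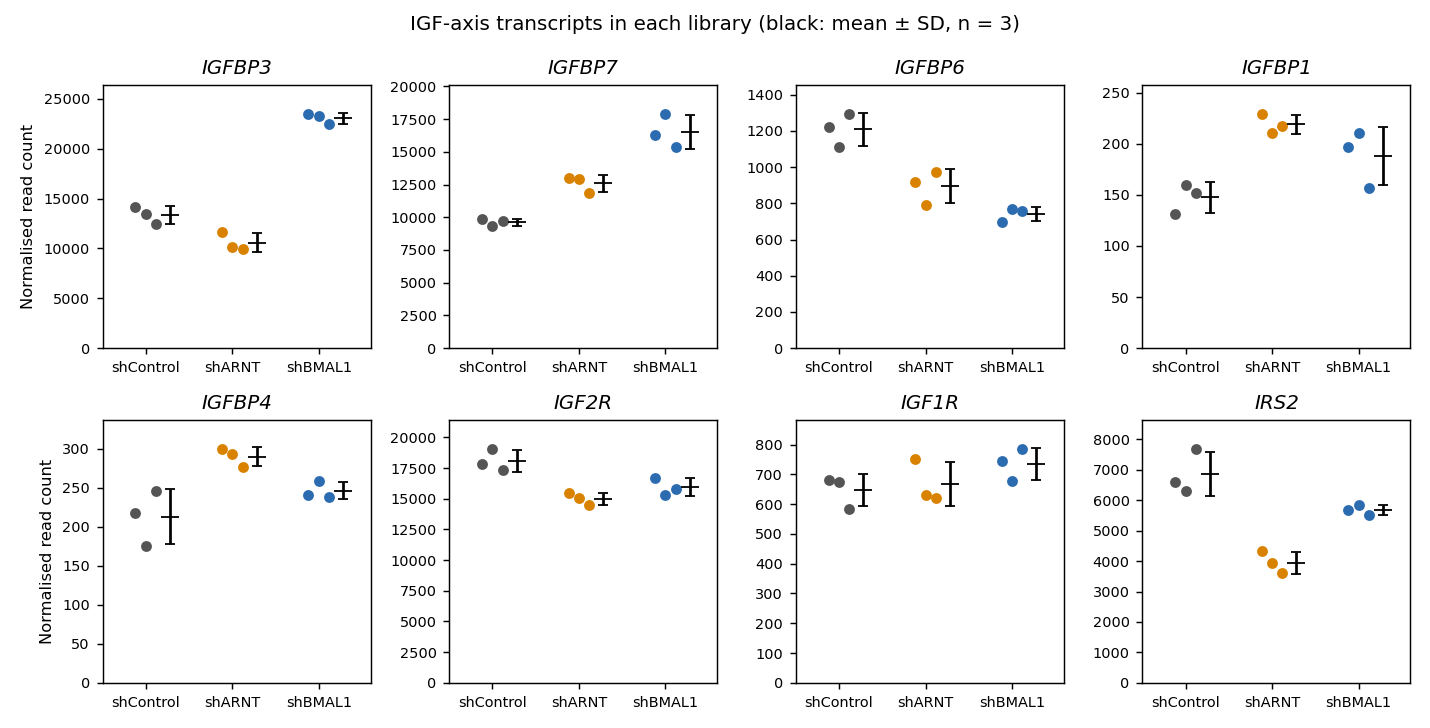
Normalised read counts (y axes, from 0) of 8 genes in the 9 libraries, with points for libraries and black marks for the group mean ± SD (n = 3). IGFBP3 lies at 9893-11679 in shARNT and 22432-23466 in shBMAL1, on opposite sides of shControl, whereas IGFBP7 is higher and IGFBP6 and IGF2R are lower in both knockdowns.

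In shARNT against shControl, 8 of the 10 genes were tested and 7 were called at an adjusted p under 0.1, where 35.4% of the 15171 genes tested were called. Of these 7, IRS2, IGFBP6, IGFBP3 and IGF2R were lower and IGFBP1, IGFBP4 and IGFBP7 higher, against 19.0% of all tested genes lower and 16.5% higher. In shBMAL1 against shControl, 9 were tested, with IGFBP5 among them at its few counts, and 5 were called, where 36.8% of 19047 genes were called. IGFBP6, IRS2 and IGF2R were lower (19.4% of all genes) and IGFBP3 and IGFBP7 higher (17.4%). Between the knockdowns 8 were tested and 4 called, beside 36.3% of 17728 genes. IGFBP6 was lower in shBMAL1 than in shARNT (18.6% of all genes), and IGFBP3, IRS2 and IGFBP7 were higher (17.8%). The median log2 fold change of the tested members was -0.11, 0.19 and 0.11 in the 3 comparisons, beside 0.0028, 0.016 and 0.0076 over all genes tested. Nothing is read from these counts, because the genes were chosen with the results known, and the comparisons with shControl share the same 3 control libraries. Only IRS2 in shARNT, IGFBP3, IGFBP6 and IGFBP7 in shBMAL1, and IGFBP3 between the knockdowns were called and changed by at least 1.5-fold.

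**Figure D2:**
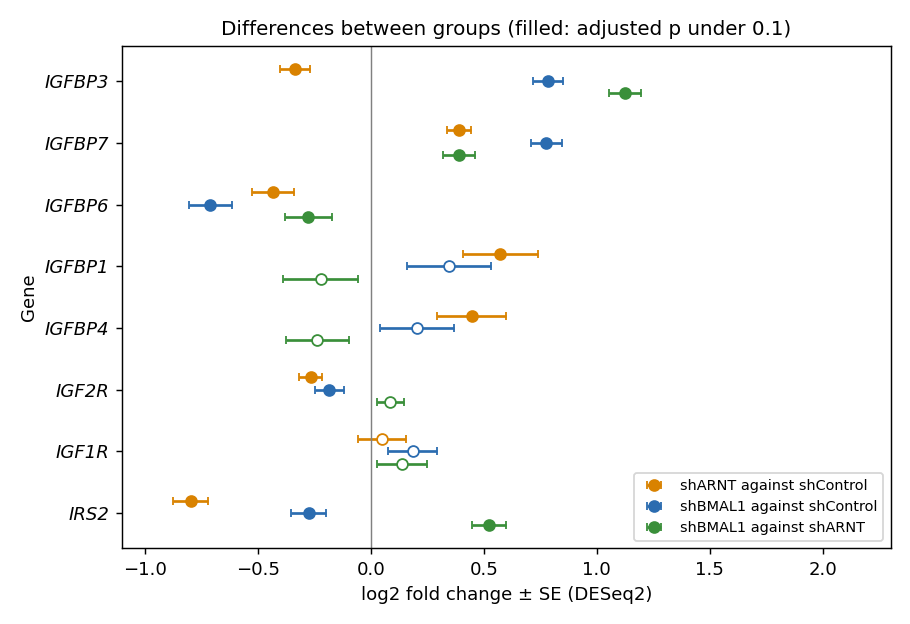
Log2 fold changes (x axis, DESeq2, bars ± SE) of 8 genes in the 3 comparisons, with filled points for an adjusted p under 0.1. IGFBP3 runs from -0.34 in shARNT to 0.78 in shBMAL1, IGFBP7 is positive and IGFBP6 negative against shControl in both, and IGF1R has open points only.

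Levels of different genes were compared as normalised counts per kilobase of merged exon, which removes gene length. In shControl the order was IGFBP7 (4986 ± 145), IGFBP3 (2926 ± 194), IGFBP6 (898 ± 67.9), IRS2 (842 ± 88.7), IGF2R (798 ± 39.9), IGFBP4 (96.7 ± 15.9), IGFBP1 (89.8 ± 9.14), IGF1R (46.4 ± 3.86), then IGFBP2 and IGFBP5 with means under 1 (SD, n = 3). IGFBP6 and IRS2, IRS2 and IGF2R, and IGFBP4 and IGFBP1 overlapped between libraries and cannot be ranked. The signalling receptor was the least abundant of the 10 genes apart from IGFBP2 and IGFBP5, and the other receptor and the adaptor stood with IGFBP6. The order moved with the knockdown in the middle of the list. IRS2 (484 ± 43.9 per kilobase) lay below IGF2R (663 ± 22.1) in every shARNT library, and IGFBP6 (550 ± 29.1) lay below IRS2 (697 ± 19.8) in every shBMAL1 library. When the longest transcript replaced the merged exons as the length, IGFBP3 in shControl came to 5082 and IGF2R to 1269, above IGFBP6 at 1027. The mean of IRS2, whose length was the same either way, stayed at 842, below IGF2R in shControl as well. The absolute per-kilobase values, and the change of order between IRS2 and IGF2R, thus depend on the transcript assumed.

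IGFBP7 and IGFBP3 together made up most of the binding protein transcripts per length. IGFBP7 had 55.4% ± 0.923 of the summed level of the 7 binding proteins in shControl, 66.8% ± 1.57 in shARNT and 59.4% ± 1.40 in shBMAL1. IGFBP3 had 32.5% ± 1.77, 23.7% ± 1.15 and 35.2% ± 1.36 (SD, n = 3). The share of IGFBP3 in shARNT (22.7-24.9% across libraries) lay below both other groups. IGFBP6 shrank from 9.98% ± 0.700 to 6.82% ± 0.903 in shARNT and 3.83% ± 0.263 in shBMAL1. The summed level was 8998 ± 261 per kilobase in shControl, 9767 ± 484 in shARNT and 14378 ± 770 in shBMAL1. All shBMAL1 libraries (13638-15176) lay above the others, whereas shControl (8780-9287) and shARNT (9279-10247) overlapped. The ratio of IGFBP3 to IGFBP7 was 0.587 ± 0.0414 in shControl and 0.592 ± 0.0363 in shBMAL1, and 0.355 ± 0.0243 in shARNT, where the transcripts moved in opposite directions. With the longest transcript as the length, IGFBP3 had 39.0%, 28.9% and 41.4% of the sum in shControl, shARNT and shBMAL1.

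**Figure D3:**
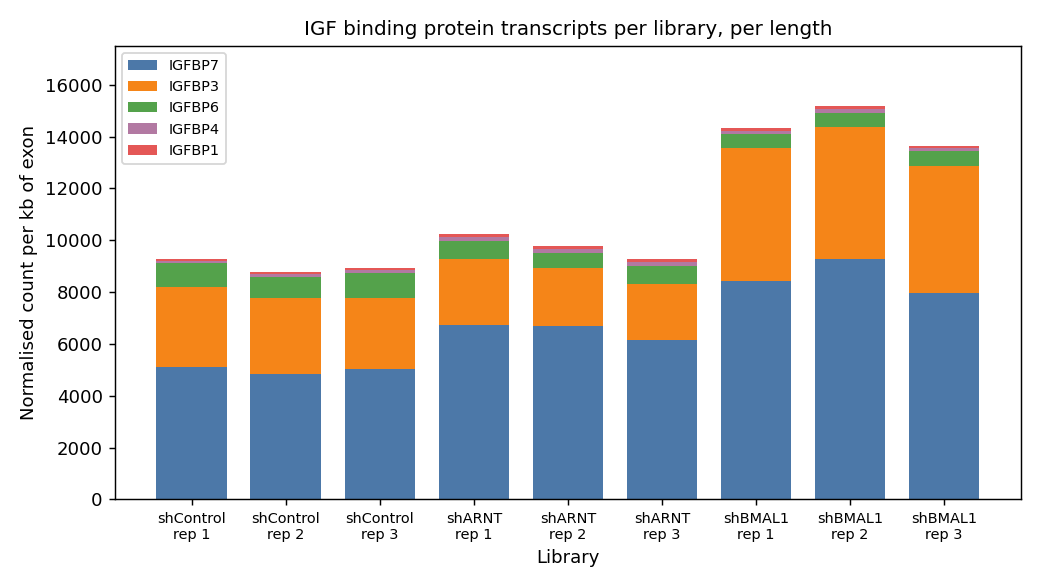
Summed level of the IGF binding proteins in each of the 9 libraries (y axis, normalised count per kb of exon, from 0), stacked by gene, with IGFBP2 and IGFBP5 left out at no more than 1.26 per kb in a library. The shBMAL1 bars reach 13638-15176, above the 8780-10247 of the other groups, mainly through the IGFBP7 and IGFBP3 segments.

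The IGFBP3 pattern over the 9 libraries was most like those of BICD1, an adaptor of dynein transport (Pearson r = 0.997), ITIH5, a hyaluronan-binding protein of the matrix (0.993), and CDH11, a mesenchymal cadherin (0.992), among 12936 genes with a mean of at least 50. These correlations of log2 values are descriptions, since the 9 points share 3 group means. ITIH5 went from 1752 ± 93.9 normalised counts in shControl to 1248 ± 100 in shARNT and 4656 ± 276 in shBMAL1 (SD, n = 3). CDH11 went from 331 ± 27.9 to 206 ± 43.96 and 851 ± 59.5. Both had larger folds than IGFBP3 in each knockdown, and BICD1 had smaller ones.

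IGF1, IGF2 and INS had 0 counts in all 9 libraries, as had IRS4. The readthrough gene INS-IGF2, which shares sequence with INS and IGF2, had 4 to 28 counts a library, so reads of IGF2 or INS that were assigned to it cannot be told apart, and the 0 of these 2 genes may not mean that no such RNA was present. A count of 0 allows up to 3 counts in a library, for counting error only. Of the 10 genes in the list of ligands, 6 had no counts in any library, and the rest included no ligand of IGF1R. The insulin receptor INSR had 2 to 20 counts a library. Its higher value in shBMAL1 (log2 1.75 ± 0.69, DESeq2 adjusted p = 0.0383) rested on these few counts and was lost without shControl replicate 1 (1.48, 0.144) or 3 (1.75, 0.1002) and without shBMAL1 replicate 1 (1.62, 0.156) or 2 (1.74, 0.120).

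IRS1, the adaptor most like IRS2, was lower in both knockdowns. It ranged over 3834-3987 normalised counts for shControl, 2752-3033 for shARNT and 3324-3472 for shBMAL1, with no overlap. Its log2 fold change was -0.40 ± 0.06 in shARNT (DESeq2 adjusted p = 4.34e-10) and -0.19 ± 0.06 in shBMAL1 (adjusted p = 0.0117), in the order seen for IRS2 and with smaller values. Of the 15 genes of the insulin receptor family and its adaptors, 12 were tested in shARNT, with 3 lower and 1 higher (4 of 12, beside 35.4% of all genes), and 13 in shBMAL1, with 6 lower and 3 higher (beside 36.8%). Their median log2 fold changes were 0.015 and -0.011, beside 0.0028 and 0.016 over all genes tested. The feedback adaptor GRB10 (-0.36 and -0.24) and the ubiquitin ligase CBL (-0.32 and -0.75) were lower in both, and SHC1, which links receptors to RAS, was lower in shBMAL1 (-0.42). GRB2 was higher in shARNT (log2 0.21, DESeq2 adjusted p = 0.0701), a call lost without shControl replicate 1 (adjusted p = 0.434) or 2 (0.127) or shARNT replicate 1 (0.277) or 3 (0.151). GRB14 was higher in shBMAL1 (0.22, DESeq2 adjusted p = 0.0406), lost without shControl replicate 2 (0.182) or shBMAL1 replicate 2 (0.185). GAB1 was higher in shBMAL1 (0.32, DESeq2 adjusted p = 0.0439), lost without shControl replicate 1 (0.222) or 3 (0.142) or shBMAL1 replicate 1 (0.165).

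Among 14 proteases of the binding proteins and their regulators, 12 were tested in shARNT, with 7 lower and 3 higher (beside 19.0% and 16.5% of all genes), and 14 in shBMAL1, with 3 lower and 5 higher (beside 19.4% and 17.4%). Their median log2 fold changes were -0.19 and 0.23, beside 0.0028 and 0.016 over all genes. The largest falls were in PAPPA2, which cuts IGFBP3 and IGFBP5, and in the stanniocalcin STC1, an inhibitor of PAPPA and PAPPA2. PAPPA2 had 136-159 normalised counts for shControl, 24.6-39.9 for shARNT and 63.5-106 for shBMAL1 (log2 -2.10 ± 0.26 and -0.78 ± 0.23). STC1 had 1022-1417, 322-369 and 530-617 (log2 -1.82 ± 0.12 and -1.09 ± 0.12), and both genes were separated between all groups. DESeq2 gave adjusted p-values of 1.85e-14 and 0.00286 for PAPPA2, and 2.42e-51 and 1.61e-18 for STC1. STC2, named after its values were seen as the partner of STC1, had log2 fold changes of -1.43 ± 0.08 and -0.76 ± 0.10. PAPPA, also named after its values were seen, had group means of 13.7, 33.7 and 14.5 normalised counts. It was called higher in shARNT than in shControl, a call lost without shControl replicate 2 (DESeq2 adjusted p = 0.107) or shARNT replicate 1 (0.232). The call of PAPPA as lower in shBMAL1 than in shARNT was lost without shARNT replicate 1 (DESeq2 adjusted p = 0.270) or shBMAL1 replicate 2 (0.103).

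MMP7, a matrix protease that cuts IGFBP5, was 5.68-fold higher in shBMAL1 (899-1004 normalised counts against 147-182 in shControl, DESeq2 adjusted p = 1.02e-89). In shARNT it was 1.37-fold higher (205-256 normalised counts, adjusted p = 0.0265), a call lost without shControl replicate 3 (0.151) or shARNT replicate 2 (0.195). The lysosomal protease CTSD, which reaches lysosomes through mannose 6-phosphate receptors such as IGF2R, was higher in both (log2 0.44 ± 0.04 and 0.43 ± 0.07). HTRA1, a secreted serine protease named after its values were seen, was lower in shARNT (6166-6632 normalised counts) and higher in shBMAL1 (11547-13863) than in shControl (9368-10224), the directions seen for IGFBP3. BMP1 (log2 -0.23 ± 0.06 and 0.40 ± 0.07) had these signs as well. These comparisons share the shControl libraries, and the proteases' activity was not measured.

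Of 12 genes listed as relatives of the binding proteins, 5 were tested in shARNT, with 2 higher (beside 16.5% of all genes). In shBMAL1 8 were tested, with 4 higher (beside 17.4%). Their median log2 fold changes were 0.19 and 0.18, beside 0.0028 and 0.016 over all genes. CYR61 (CCN1), a matricellular protein, was higher in shBMAL1 (log2 0.71 ± 0.09) and had a log2 difference of 0.033 ± 0.073 in shARNT, which turned to -0.020 without shControl replicate 2. NOV (CCN3) had 67.4-99.1 normalised counts for shControl, 240-271 for shARNT and 57.6-79.6 for shBMAL1, a 3.02-fold increase in shARNT (DESeq2 adjusted p = 4.44e-16). CRIM1, a membrane protein that binds growth factors, was higher in both (log2 0.39 ± 0.05 and 0.37 ± 0.06). CTGF (CCN2) was higher in shBMAL1 (log2 0.39 ± 0.15, DESeq2 adjusted p = 0.0273), lost without shControl replicate 2 (0.118) or shBMAL1 replicate 3 (0.211).

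**Figure D4:**
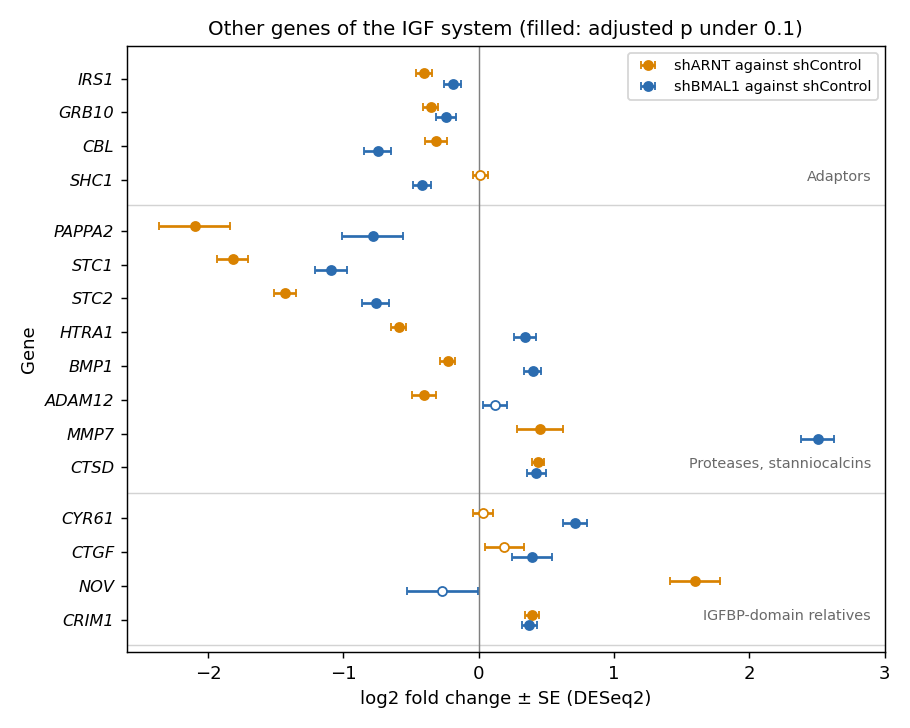
Log2 fold changes (x axis, DESeq2, bars ± SE) of adaptors, of proteases with the stanniocalcins, and of IGFBP-domain relatives, with filled points for an adjusted p under 0.1. PAPPA2 (-2.10 and -0.78) and STC1 (-1.82 and -1.09) are lower in both knockdowns, MMP7 reaches 2.51 in shBMAL1, and HTRA1 and BMP1 fall on either side of 0.

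The tested genes adjoining called members were compared with them by their values. TOP2A, 25553 bases from IGFBP4 and known for mitotic chromosome structure, was lower in shARNT (log2 -0.56, DESeq2 adjusted p = 5.92e-32) where IGFBP4 was higher, and its log2 difference in shBMAL1 was -0.052 (adjusted p = 0.588). COL4A1, a basement membrane collagen gene 362379 bases from IRS2, had the signs of IRS2, lower in shARNT (-0.21, DESeq2 adjusted p = 0.00129) and with a difference of -0.10 in shBMAL1 (adjusted p = 0.335) that passed without shBMAL1 replicate 3 (-0.17, 0.0624). MRPL18, a mitochondrial ribosomal protein gene 170645 bases from IGF2R, was higher in both knockdowns, where IGF2R was lower (0.27 and 0.22, DESeq2 adjusted p-values 0.000168 and 0.0126), and its shBMAL1 call was lost without shControl replicate 1 (0.107). SPRYD3, 18031 bases from IGFBP6, was lower in shBMAL1 as IGFBP6 was (-0.36, DESeq2 adjusted p = 0.00127). In shARNT its difference was 0.18 (DESeq2 adjusted p = 0.0701), a call lost without shControl replicate 1 (0.121) or 3 (0.326) or any 1 shARNT library (0.136, 0.27 and 0.103 for replicates 1 to 3), and in the fit of all 9 libraries (0.114). NOA1, 53166 bases from IGFBP7, had differences of 0.045 and 0.16 (DESeq2 adjusted p-values 0.783 and 0.209), the first turning sign without shControl replicate 1 (-0.011) or shARNT replicate 2 (-0.041). The antisense gene IGFBP7-AS1 was higher wherever IGFBP7 was, as given above.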

How the data were processed

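RNA of 9 libraries of 786-O cells was prepared with a stranded mRNA kit and sequenced by the study. The authors deposited estimated counts per gene (expected counts, of which 6.14% of the values other than the placeholder were fractional), with 0.009 in place of 0 in 46.3% of cells. The study's methods name SeqMan NGen, ArrayStar and build GRCh37, whereas the submitters' processing notes name STAR, DESeq2 and hg38. The strand setting of the counting is not given in the sources used here.

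Values were rounded, the placeholder was set to 0, and 53 rows that repeated a name were summed, leaving 38021 genes, of which 28 carried date-like names. No column belonged to other samples (0 columns). Libraries were grouped by their labels. Each of the 3 comparisons was fitted in DESeq2 1.42.0 (R 4.3.3) on its 6 libraries, with the Wald test, median-of-ratios size factors, independent filtering at 0.1 and Benjamini-Hochberg adjustment over all genes, after the study's threshold of 0.1. Normalised counts used size factors over all 9 libraries, with exon lengths of GENCODE v44 on GRCh37 (23657 genes matched, holding 95.1% of counts). Total counts per library were 33793067 to 35444757, and counting intervals cover counting error only. Fits were tested on simulated data. Replicates of a group differed by more than sampling noise (chi-square per degree of freedom of at least 7.60). Alternatives were edgeR 4.0.16, TMM scaling, a filter of 10 counts in 3 libraries, a threshold of 0.05, a minimum of 1.5-fold, 1 fit of all libraries, correction for GC content, a replicate block, leaving out each library and, for levels per kilobase, the longest transcript as the length.

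The members, lists and tests were chosen with earlier results of these data known. All 10 members were named, with the targeted genes, IGF1, IGF2, INS, INSR and IRS1 whatever their values. Of each list the 2 lowest and 2 highest fold changes among genes called in each knockdown with a mean of at least 50 were named. The 3 genes most like the member that differed most between the knockdowns, and tested genes adjoining called members, were named too. A comparison of protein sequences was not run, and 1 gene of the lists is not reported here.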

Additional observations from a re-analysis of the deposited data

Results flagged for a closer look

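Genes were looked at again where the knockdowns were called in opposite directions against shControl and the direct comparison of shBMAL1 with shARNT passed DESeq2's adjusted p of 0.1. IGFBP3 was lower in shARNT and higher in shBMAL1, with a direct log2 difference of 1.12 ± 0.07. Of the other genes in the lists, the carbonic anhydrase CA9, one of the renal carcinoma markers, differed by 3.90 (log2 -2.85 in shARNT and 1.05 in shBMAL1, each against shControl), HTRA1 differed by 0.94, BMP1 by 0.63, the PI3K subunit PIK3R2 by 0.60 and TXNIP, a thioredoxin inhibitor, by 1.02, each lower in shARNT and higher in shBMAL1 than in shControl. PDK4, a pyruvate dehydrogenase kinase, had the opposite signs and a direct difference of -1.05. Its call in shARNT (log2 0.53, DESeq2 adjusted p = 0.017) was lost without shControl replicate 1 (0.127) or shARNT replicate 2 (0.114). Its call in shBMAL1 (log2 -0.52, DESeq2 adjusted p = 0.058) was lost without shControl replicate 2 (0.108) or 3 (0.292) and without shBMAL1 replicate 2 (0.182) or 3 (0.211).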

How the results depend on the processing

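The log2 fold changes of the members other than IGFBP2 and IGFBP5 were recomputed under each alternative setting, apart from the 1.5-fold minimum, which gave 314 values with IGFBP5 in shBMAL1 included. Of these, 301 kept their direction and side of the threshold, 6 lost a call, 5 gained one and 2 turned sign. The lost and gained calls, given beside the genes above, were in IGFBP4, IGF2R, IGFBP6, IGFBP1 and IGF1R, and the cause was not tested. Calls in IGFBP3, IGFBP7 and IRS2 held in every alternative run other than the 1.5-fold minimum. The sign changed for IGF1R in shARNT without shControl replicate 3 (-0.019) or shARNT replicate 1 (-0.047, at most 0.10 without any 1 library), for PAPPA in shBMAL1 without shControl replicate 2 (-0.059) or shBMAL1 replicate 3 (-0.028, at most 0.21), for CYR61 in shARNT without shControl replicate 2 (-0.020, at most 0.11) and for NOA1 in shARNT without shControl replicate 1 (-0.011) or shARNT replicate 2 (-0.041, at most 0.11), none of which was called. A minimum of 1.5-fold left 1200 genes and 1 member in shARNT, 2606 and 3 in shBMAL1, and 2058 and 1 between the knockdowns, by its own construction.

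Same-numbered libraries of different groups did not deviate together (correlations of -0.154 to 0.105), so the numbers were not treated as pairs. With a replicate block DESeq2 called 4151, 5743 and 5386 genes in the 3 comparisons, and 7, 5 and 4 members. Of the other named genes, the block ended the calls of GRB2 (adjusted p = 0.122), GGA3 (0.120), SPRYD3 (0.138) and PAPPA (0.102) in shARNT, of INSR (0.118), GRB14 (0.124), GAB1 (0.126), PIK3R3 (0.1001), IGF2BP2 (0.137) and PDK4 (0.170) in shBMAL1, and of PAPPA between the knockdowns (0.123). The median log2 fold change of all genes tested lay between -0.0054 and 0.022 under TMM scaling, edgeR and the correction for GC content. Depth limits IGFBP2 and IGFBP5, at up to 6 and 4 counts a library, and INSR, at up to 20.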

Other observations

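Genes that act after the receptors or beside IGF2R were counted as well, beside the shares of all tested genes called lower (19.0% in shARNT and 19.4% in shBMAL1) and higher (16.5% and 17.4%) and their median log2 fold changes (0.0028 and 0.016). Of 24 genes of the PI3K-AKT-mTOR relay, all tested, 6 were lower and 8 higher in shARNT (median log2 0.035), and 8 were lower and 2 higher in shBMAL1 (-0.15), where 36.8% of all genes were called in either direction. The catalytic subunit PIK3CD (log2 -0.79 ± 0.07 and -0.73 ± 0.08) and the translation repressor EIF4EBP1 (-0.69 ± 0.08 and -0.84 ± 0.11) were lower in both knockdowns. RICTOR, a subunit of the second mTOR complex, was higher in shARNT (0.62 ± 0.09), and the regulatory subunit PIK3R2 was higher in shBMAL1 (0.29 ± 0.08). Another regulatory subunit, PIK3R3, was higher in both (0.62 ± 0.14 and 0.40 ± 0.15), in shBMAL1 with a DESeq2 adjusted p of 0.0322 that was lost without shControl replicate 3 (0.187) or shBMAL1 replicate 2 (0.157). Of 12 FOXO factors and FOXO-responsive genes, 9 were tested in shARNT, with 1 lower and 5 higher (median log2 0.45), and 11 in shBMAL1, with 1 lower and 6 higher (0.42). The transcriptional repressor BCL6 (0.80 and 0.50), the pseudokinase TRIB1 (0.54 and 0.63) and FOXO4 (0.45 and 0.64) were higher in both, CCNG2 was higher in shBMAL1 (0.41), and TXNIP (-0.60) was lower in shARNT.

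Of 8 genes that tag or sort cargo of the mannose 6-phosphate receptors, 5 were higher in shARNT (median log2 0.18), and 5 were higher and 2 lower in shBMAL1 (0.26), beside 16.5% of all genes higher in shARNT and 17.4% higher and 19.4% lower in shBMAL1. GNPTAB, which encodes subunits of the enzyme that starts the tag, was higher in both (log2 0.59 ± 0.06 and 0.43 ± 0.08), as were NAGPA, which completes it (0.55 ± 0.10 and 0.32 ± 0.11), and GNPTG (0.32 ± 0.09 and 0.58 ± 0.09), while IGF2R itself was lower. The sorting receptor SORT1 was higher in shBMAL1 (0.57 ± 0.09) and the coat adaptor GGA1 lower (-0.25 ± 0.08). The smaller receptor M6PR was lower in shBMAL1 (-0.17, DESeq2 adjusted p = 0.0494), lost without shControl replicate 2 (0.233) or 3 (0.123) or shBMAL1 replicate 3 (0.187). GGA2 was higher in shARNT (0.18, DESeq2 adjusted p = 0.0199), lost without shControl replicate 2 (0.124) or shARNT replicate 1 (0.124) or 2 (0.113). GGA3 was higher in shARNT (0.17, DESeq2 adjusted p = 0.0392), lost without shControl replicate 1 (0.107) or 3 (0.173) or shARNT replicate 1 (0.1003) or 2 (0.157). Of the 3 IGF2 mRNA-binding proteins, IGF2BP3 was higher in both (0.42 ± 0.08 and 0.83 ± 0.08) and IGF2BP2 was lower in shARNT (-0.29 ± 0.07). IGF2BP2 was also lower in shBMAL1 (-0.18, DESeq2 adjusted p = 0.0705), lost without shControl replicate 2 (0.343) or 3 (0.124) or shBMAL1 replicate 1 (0.145) or 2 (0.179).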
